A study of Homo sapiens with 6 samples.

Results

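The clustered protocadherins are a family of neuronal cell-surface adhesion proteins encoded in 3 neighbouring gene clusters, alpha, beta and gamma, on chromosome 5. Their entries were chosen by symbol from a table of gene counts in NGP, a human neuroblastoma cell line with MYCN amplification. Every entry named PCDHA with a number or C, PCDHB with a number, or PCDHGA, PCDHGB or PCDHGC with a number was taken. This gave 53 of 19868 entries, with 15 in the alpha, 16 in the beta and 22 in the gamma cluster. The study compared NGP cells with knockdown of CAMKV, a pseudokinase related to the calmodulin-dependent kinases, with control cells. The control group (Control, sh-control) and the knockdown group (CAMKV-KD, sh-CAMKV) hold 3 libraries each. Both were grown in RPMI-1640 with fetal bovine serum, and NGP is the only line studied. The labels do not say how many hairpins or separate cultures stand behind the libraries, and the p-values below rest on the spread among these 6 libraries, part or all of which may be technical.

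Each alpha and gamma gene has its own variable first exon, which carries the extracellular domains, and splices to constant exons shared by its cluster. Each beta gene is a single coding exon. A neuron switches on a small set of these promoters, and the proteins bind like to like between cells, which lets a neuron tell its own branches from those of others. The C-type members (PCDHAC1, PCDHAC2, PCDHGC3, PCDHGC4 and PCDHGC5) are known from mouse neurons as more constitutively or separately regulated isoforms. Most promoters of the clusters, that of the C-type PCDHGC3 among them, carry a conserved sequence element around the letters CGCT. The insulator protein CTCF binds to it while cohesin joins promoter and distant enhancer.

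That element is shown here for the 10 members that passed the test below, and for PCDHA4, the second most abundant alpha entry. Each line gives 30 bases from before the RefSeq gene start, 5′ to 3′ on the plus strand of chromosome 5, with the core CGCT in capitals. Sequences and positions are RefSeq's on GRCh38.p14, upstream of the gene start in that annotation. GENCODE release 29, used for gene positions below, starts PCDHA4, PCDHA11 and PCDHB14 earlier, so these 3 windows lie inside its gene models.
PCDHA11 (chr5:140868884-140868913): ttaggcgcaaggtgtCGCTctttacttggt
PCDHA4 (chr5:140806980-140807009): ggagccacatgatgtCGCTctttaccacaa
PCDHB2 (chr5:141094545-141094574): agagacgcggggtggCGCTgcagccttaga
PCDHB9 (chr5:141187075-141187104): gaagccacaaggtggCGCTgcagactgaag
PCDHB14 (chr5:141223264-141223293): ggagacacatggtggCGCTacaggataaga
PCDHB15 (chr5:141245315-141245344): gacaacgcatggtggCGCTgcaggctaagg
PCDHGA1 (chr5:141330404-141330433): taggactgtgggcgcCGCTgttcactaatc
PCDHGA6 (chr5:141373836-141373865): taggactctaagcgtCGCTgttgaccaacc
PCDHGB2 (chr5:141359922-141359951): aaaacctctgagcgtCGCTgttggtcaaaa
PCDHGB6 (chr5:141407925-141407954): ggagcctctgggcgcCGCTgtcggccagtg
PCDHGC3 (chr5:141475881-141475910): tgggactctgtgtgcCGCTgtcggccaatg

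The 4 beta windows share GTGGCGCT, the 2 alpha windows share TGTCGCT, and the 5 gamma windows fit GNCGCTGT. These motifs were read from the members' own promoters and searched on both strands of windows from 250 bases before to 50 bases after each gene start, and each contains CGCT, so a match to one is also a match to CGCT. GTGGCGCT was in 13 of 14 beta promoters with a sequence, and in 1.38% of the 27305 promoters of all genes. TGTCGCT was in 10 of 13 alpha promoters and in 2.15% of all, and GNCGCTGT in 17 of 20 gamma promoters and in 5.28% of all. CGCT alone was in 46 of 47 members' promoters and in 71.9% of all. Promoters were matched by symbol for 47 of the 53 members, and PCDHA3, PCDHA13, PCDHB6, PCDHB11, PCDHGA12 and PCDHGC5 were not matched. All 10 called members and 36 of the 37 others with a sequence held CGCT. With CGCT in 71.9% of all promoters, this count says little about the longer motifs. In the windows above, each of the 10 called members held the longer motif of its own cluster. Uncalled members held these motifs too. Over all members with a sequence, GTGGCGCT was in 4 called and 9 uncalled, TGTCGCT in 1 and 13, and GNCGCTGT in 5 and 18.

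How reads were assigned bears on each value below. All 15 alpha entries carry one locus identifier (MSTRG.22313) and all 22 gamma entries another (MSTRG.22345), both made by the transcript assembler StringTie. In GENCODE release 29 on GRCh38, the alpha cluster spans 226.2 kb (chr5:140786136-141012347) and its constant exons are 59, 89 and 2718 bases long. The gamma cluster spans 182.4 kb (chr5:141330571-141512981) with constant exons of 59, 89 and 2033 bases. Between 45.5% and 54.9% of each alpha transcript, and between 45.6% and 47.6% of each gamma transcript, is sequence shared with other members. A read from a constant exon fits every member of its cluster, and how such reads were divided is not given in the sources used here, so the split between alpha members or between gamma members is uncertain. A cluster's summed level does not depend on that split.

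The beta genes (198.2 kb, chr5:141051135-141249365) have 1 exon each and share none of it with another member in the annotation. Some still share a locus identifier: PCDHB2 with PCDHB3 (MSTRG.22326), PCDHB8, PCDHB9, PCDHB10 and PCDHB16 (MSTRG.22336), and PCDHB14 with PCDHB15 (MSTRG.22342). The 53 entries thus come from 13 loci. All 16 beta genes also lie under annotated antisense genes, and the strand setting of the counting is not stated, so a beta gene's reads may include those of its antisense partner. Genes annotated on the same strand also overlap PCDHB8, PCDHB9, PCDHB14, PCDHB15 and PCDHB16, which leaves the division of reads there uncertain too.

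Total counts were 20238281 to 24701564 per library. Levels are given as CPM, counts scaled to a common library size, and 3 counts in a library correspond to 0.121 to 0.145 CPM. CAMKV itself was at 83.9, 77.3 and 84.6 CPM in Control and at 25.4, 23.2 and 25.4 CPM in CAMKV-KD, lower in every library labelled as knockdown (log2 fold change −1.73 ± 0.065 SE, edgeR adjusted p = 0.000119). Of 8 neuroblastoma identity genes, 1 rose (TH), 3 fell (PHOX2A and ISL1 among them) and 4 were not called. Of the uncalled genes, MYCN was at 857 to 1549.9 CPM in Control and at 822 to 960 CPM in CAMKV-KD. HAND2 lay wholly higher in CAMKV-KD (log2 fold change 1.15 ± 0.39 SE, edgeR adjusted p = 0.0717), and GATA3 and DBH overlapped between groups. The summed level of 5 glial markers was 1.53 to 1.86 CPM in Control and 0.669 to 1.31 CPM in CAMKV-KD, with SOX10 at 0 in every library. The summed level of 4 blood and endothelial markers was 0.496 to 0.942 CPM in Control and 0.242 to 0.726 CPM in CAMKV-KD. The 5 stromal markers were all detected, with sums of 574 to 746 CPM in Control and 700.1 to 758 CPM in CAMKV-KD. Among them COL1A1 and LUM rose and PDGFRB fell, and their part in the results was not tested. In these bulk libraries, a change in the share of cells expressing a gene and a change in RNA per cell cannot be told apart.

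The summed level of clustered protocadherin mRNA was higher in the knockdown libraries. Over the 53 entries it came to 353, 359.9 and 315 CPM in Control and to 449.6, 479 and 465 CPM in CAMKV-KD. Every knockdown library was above every control library, and the ratio of the means was 1.36. The beta cluster had the largest ratio of the 3, at 124.7 ± 18.2 CPM (SD, n = 3) in Control and 194.4 ± 12.0 CPM in CAMKV-KD, a ratio of 1.56. The gamma cluster was at 108.1 ± 4.59 and 138.4 ± 3.29 CPM, a ratio of 1.28, and the alpha cluster at 109.9 ± 4.95 and 131.8 ± 10.3 CPM, a ratio of 1.20. The groups did not overlap in any of the 3 sums, and of all tested single entries 52.8% did not overlap in one direction or the other. The alpha rise was not spread over its members: without PCDHA11, the other 12 numbered alpha members had a summed ratio of 0.89. No p-value is given for the sums. In the fit with entries summed by locus, the alpha locus (log2 fold change 0.27) and the gamma locus (0.36), each of which holds its whole cluster, were both called higher. That fit called 4 of 12 tested member loci higher, and 2276 of 12512 loci over the whole table.

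**Figure D1:**
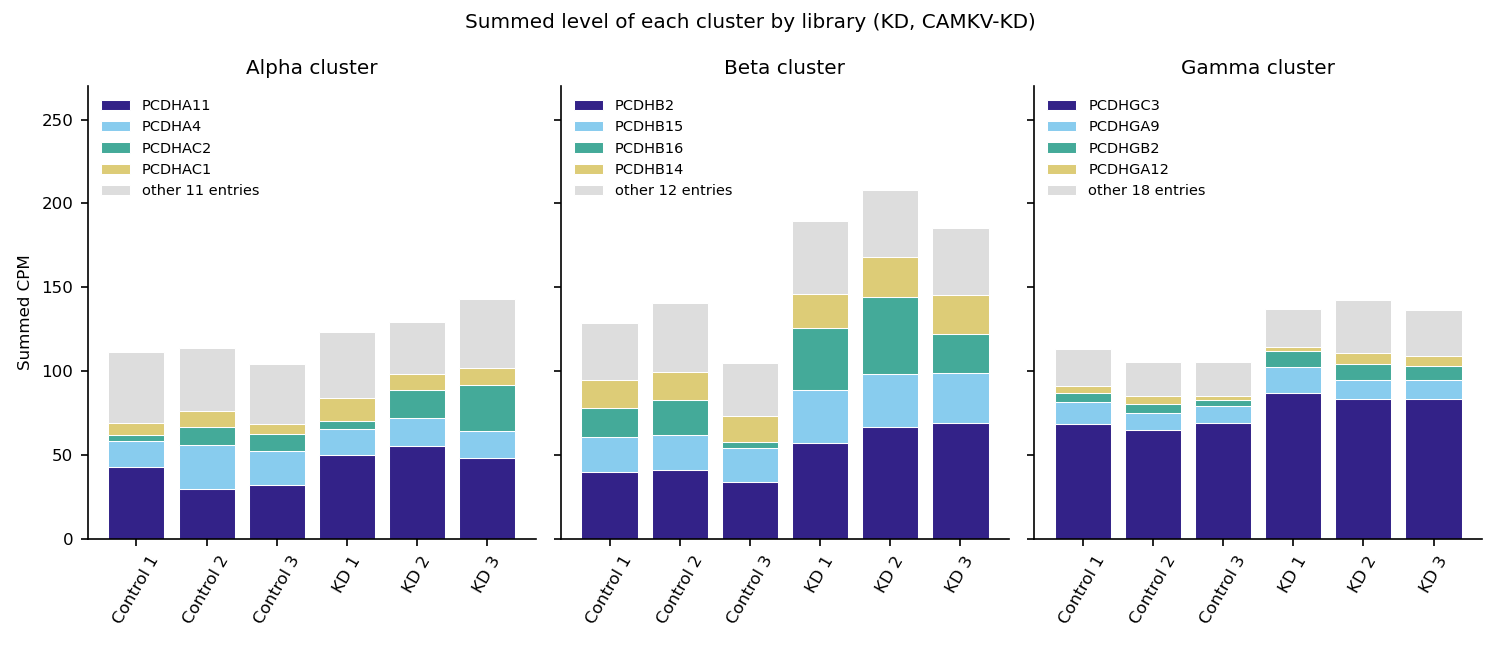
Summed CPM of the alpha, beta and gamma entries in each of the 6 libraries, stacked by the 4 most abundant members of each cluster and the rest. All 3 CAMKV-KD bars are taller than all 3 Control bars in each cluster, and PCDHGC3 makes up most of the gamma bars.

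Of the 53 members, 49 passed the filter on low counts and were tested. PCDHB1 had no count in any library, and PCDHGA3, PCDHGA8 and PCDHGB5 were too low. With edgeR's quasi-likelihood test and adjustment over all 13366 tested entries, 10 members rose and 0 fell. That is 20.4% of the tested members rising, where 17.3% of all tested entries rose, so the share of rising members is near the background. The share falling in the whole table was 19.0%. At an unadjusted p below 0.05 in the edgeR test, the same 10 members (20.4%) were higher and 0 lower, where 22.6% of all tested entries were higher. DESeq2 and limma-voom also called 0 members lower. The median log2 fold change of the tested members was 0.23, beside 0.004 over all tested entries. Of the 49 tested members, 16 (32.7%) lay wholly above Control in CAMKV-KD and 2 (4.08%) wholly below, where 26.2% of all tested entries lay wholly above and 26.5% wholly below. The untested PCDHGA3 also lay wholly above, at 0.165 to 0.269 CPM in Control and 0.404 to 0.802 CPM in CAMKV-KD.

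By cluster, 4 of 15 tested beta members rose (26.7%), 5 of 19 gamma members (26.3%) and 1 of 15 alpha members (6.67%). Over all tested entries 17.3% rose. The clusters hold few members each, and the difference between them was not tested. The median log2 fold change was 0.28 in the beta, 0.30 in the gamma and −0.29 in the alpha cluster. The sign of these 3 medians was the same under every scaling tried. By mean level, 4 of the 5 members at 20 to 100 CPM rose, 3 of 13 at 5 to 20 CPM, 3 of 21 at 1 to 5 CPM, and 0 of 10 below 1 CPM. Over all tested entries the shares rising in those bands were 19.8%, 15.1%, 13.3% and 7.06%.

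**Figure D2:**
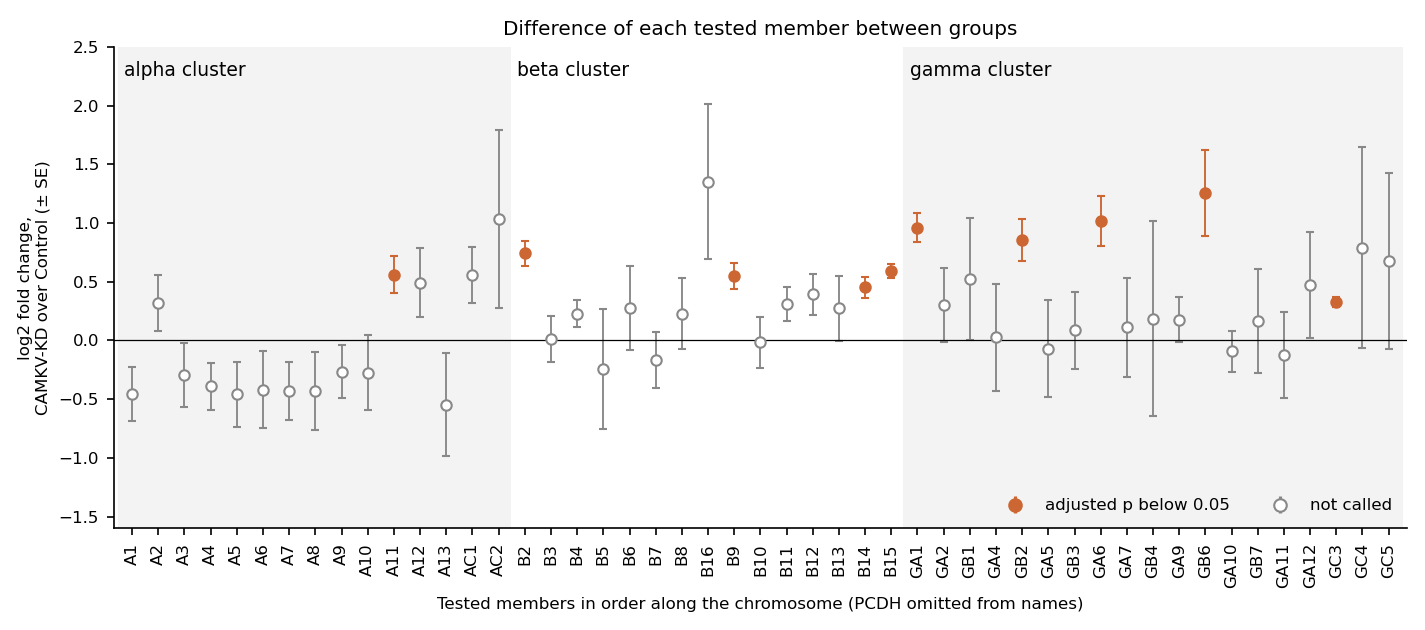
Log2 fold change of CAMKV-KD over Control for the 49 tested members in chromosomal order, with bars of 1 SE. Filled points are the 10 members with adjusted p below 0.05, all above 0, and most alpha members outside the far end of the cluster lie below 0.

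In the beta cluster, 4 of the more abundant members rose. PCDHB2 (chr5:141094578-141098703) was the most abundant beta entry, at 40.1, 41.0 and 34.1 CPM in Control and at 57.0, 66.9 and 69.0 CPM in CAMKV-KD. All knockdown values lay above the control values, and the log2 fold change was 0.74 ± 0.11 (SE; edgeR adjusted p = 0.00491). PCDHB15 (chr5:141245349-141249365), at the far end of the cluster, was at 20.7, 21.1 and 20.1 CPM in Control and 31.8, 31.6 and 30.04 CPM in CAMKV-KD. Its libraries were tight within each group, and it had the smallest adjusted p of the family (log2 fold change 0.59 ± 0.059, adjusted p = 0.00136).

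PCDHB14 (chr5:141222932-141227759), which shares a locus identifier with PCDHB15, was at 17.1, 16.8 and 15.5 CPM in Control and at 20.5, 23.6 and 23.5 CPM in CAMKV-KD (log2 fold change 0.45 ± 0.090, adjusted p = 0.0136). PCDHB9 (chr5:141187127-141191541) was at 8.30, 8.81 and 7.40 CPM in Control and at 11.2, 11.7 and 12.9 CPM in CAMKV-KD (0.55 ± 0.11, adjusted p = 0.0151). In both, the groups were apart with no overlap. All 4 of these beta members also passed when any 1 library was left out.

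PCDHB16 (chr5:141181399-141186399) had the largest fitted difference of the family but did not pass. It was at 17.02, 20.6 and 3.63 CPM in Control and 36.6, 45.8 and 23.0 CPM in CAMKV-KD. The groups did not overlap, but Control 3, with 81 counts, stood far below the 412 and 449 counts of the other Control libraries (log2 fold change 1.35 ± 0.66, adjusted p = 0.172). Without Control 3 the fitted value was 0.90, and the beta sum without PCDHB16 was 110.9 ± 9.38 CPM in Control and 159.3 ± 5.46 CPM in CAMKV-KD, a ratio of 1.44. The neighbour PCDHB10, in the same locus, had a log2 fold change of −0.02 ± 0.22.

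The other tested beta members ranged from a log2 fold change of −0.24 for PCDHB5 to 0.39 for PCDHB12. PCDHB4, PCDHB11 and PCDHB12 lay wholly higher in CAMKV-KD with adjusted p of 0.190, 0.158 and 0.141. PCDHB3, which shares its locus identifier with PCDHB2, was at 5.00, 6.29 and 4.04 CPM in Control and 5.70, 4.75 and 4.99 CPM in CAMKV-KD. Its groups overlapped fully (log2 fold change 0.01 ± 0.19), so the 2 entries of that locus had different values.

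In the gamma cluster one C-type member made up most of the level. PCDHGC3 (chr5:141475947-141512979) made up 62.4% ± 2.56 (SD, n = 3) of the cluster's CPM in Control and 61.3% ± 2.43 in CAMKV-KD. Its level was 68.5, 64.8 and 68.9 CPM in Control and 87.2, 83.6 and 83.7 CPM in CAMKV-KD. The libraries of each group were close together and the groups were apart, with a log2 fold change of 0.33 ± 0.043 (SE; edgeR adjusted p = 0.00326). Per kb of spliced transcript, PCDHGC3 was the highest member at 14.3 CPM per kb in Control, followed by PCDHB2 at 9.31, PCDHA11 at 5.68 and PCDHB15 at 5.13. With 46.2% of its transcript shared and the division of constant-exon reads unknown, the level, share and rank of PCDHGC3 within its cluster are uncertain too. The order below PCDHGC3 also depends on the length used: per kb of its largest exon PCDHA11 was at 10.7 CPM per kb, above PCDHB2. Without PCDHGC3 the gamma sum was 40.7 ± 4.15 CPM in Control and 53.6 ± 4.51 CPM in CAMKV-KD.

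The other C-type gamma members were low and scattered. PCDHGC4 was at 1.12, 1.24 and 0.583 CPM in Control and 0.242, 3.15 and 1.74 CPM in CAMKV-KD, and its groups overlapped (log2 fold change 0.79 ± 0.86, adjusted p = 0.524). Its value was 0.008 without CAMKV-KD 2 and 1.31 without CAMKV-KD 1. PCDHGC5 was at 0.661, 0.551 and 1.48 CPM in Control and at 0.687, 2.95 and 0.713 CPM in CAMKV-KD (0.68 ± 0.75, adjusted p = 0.530). Without CAMKV-KD 2, its single high library, the PCDHGC5 value was −0.35.

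Among the 12 gamma A members, PCDHGA1 and PCDHGA6 rose from low levels. PCDHGA1 (chr5:141330571-141512981), the first gene of the cluster, was at 1.74, 1.61 and 1.62 CPM in Control and 3.07, 3.44 and 3.16 CPM in CAMKV-KD. The groups were wide apart relative to their spread (log2 fold change 0.96 ± 0.12, adjusted p = 0.00293), and it passed with any 1 library left out. PCDHGA6 (chr5:141373914-141512979) was at 0.991, 1.24 and 0.852 CPM in Control and 2.06, 1.79 and 2.41 CPM in CAMKV-KD (1.02 ± 0.21, adjusted p = 0.0158). It failed without Control 1 or without CAMKV-KD 3, with adjusted p of at most 0.0557 over the 6 fits that left 1 library out. PCDHGA9, the most abundant gamma A member, did not pass, at 13.4, 10.003 and 10.2 CPM in Control and 15.4, 11.3 and 11.3 CPM in CAMKV-KD (0.18 ± 0.19, adjusted p = 0.516). PCDHGA12 (0.47 ± 0.45) and PCDHGA10 (−0.09 ± 0.17) also overlapped between groups.

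Of the 7 gamma B members, PCDHGB2 and PCDHGB6 rose. PCDHGB2 (chr5:141360042-141512979) was at 5.16, 5.83 and 3.86 CPM in Control and 9.45, 9.20 and 8.25 CPM in CAMKV-KD, with no overlap (log2 fold change 0.86 ± 0.18, adjusted p = 0.0164). Without CAMKV-KD 1 or CAMKV-KD 2 it was not called, with adjusted p of at most 0.0539. PCDHGB6 (chr5:141408021-141512979) rested on few reads, with 22, 17 and 19 counts in Control and 29, 61 and 45 counts in CAMKV-KD (1.26 ± 0.37, adjusted p = 0.0468). It passed with CAMKV-KD 1 left out and failed with any other library left out, with adjusted p up to 0.126, and was not called by limma-voom or without the low-count filter. PCDHGB7 had overlapping groups (0.17 ± 0.44, adjusted p = 0.805).

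**Figure D3:**
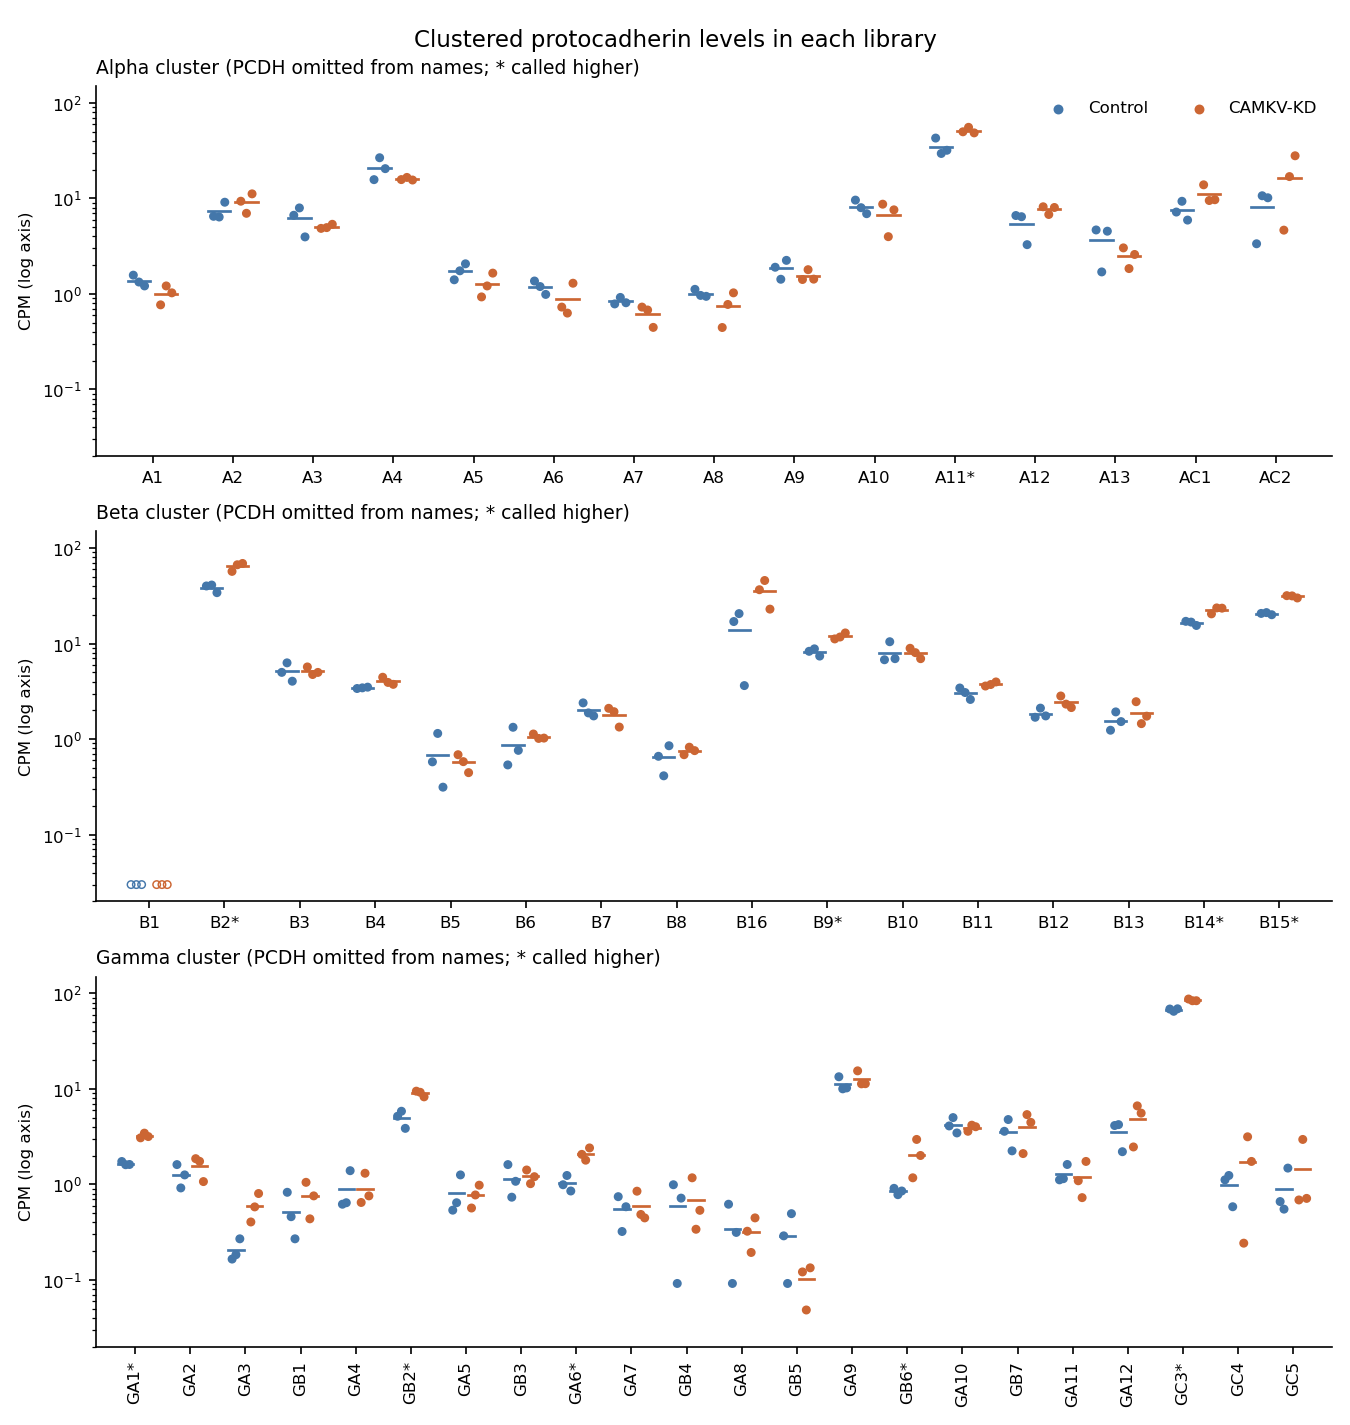
CPM of each member in each library on a log axis, in chromosomal order by cluster. Short lines are group means, open circles at the foot of the axis mark entries with no count, and stars mark the 10 called members, such as PCDHGC3 at 64.8 to 68.9 CPM in Control and 83.6 to 87.2 CPM in CAMKV-KD.

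The most abundant alpha entries were PCDHA11 and PCDHA4, and of the cluster PCDHA11 alone rose. PCDHA11 (chr5:140868183-141012344) was at 42.8, 29.5 and 31.9 CPM in Control and 49.7, 55.4 and 48.5 CPM in CAMKV-KD. Every knockdown library was above every control library, although Control 1 came close (log2 fold change 0.56 ± 0.16, adjusted p = 0.0417). The call was held with Control 1 left out and lost with any other library left out, with adjusted p up to 0.117. PCDHA4 was at 15.7, 26.6 and 20.5 CPM in Control and 15.7, 16.6 and 15.6 CPM in CAMKV-KD. Its groups overlapped at Control 1 (−0.39 ± 0.20, adjusted p = 0.189), and without Control 1 it was called lower, at −0.56 with adjusted p = 0.0462. Without Control 2, its highest library, the value was −0.18 with adjusted p = 0.399.

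PCDHA11 made up 31.6% ± 6.38 of the alpha CPM in Control and 39.1% ± 4.67 in CAMKV-KD, and PCDHA4 19.0% ± 4.63 and 12.2% ± 1.12. Without PCDHA11, the other 12 members numbered 1 to 13 summed to 59.6 ± 4.35 CPM in Control and 53.1 ± 5.09 CPM in CAMKV-KD. Of the 13 numbered alpha members, 10 had a negative fitted value, and none of these was called. In CAMKV-KD, 2 of the 13 (PCDHA1 and PCDHA7) lay wholly lower and 2 wholly higher, or 15.4% each way. Over all tested entries, 26.5% lay wholly lower and 26.2% wholly higher. PCDHA1 was at 1.57, 1.33 and 1.21 CPM in Control and 0.768, 1.21 and 1.03 CPM in CAMKV-KD (−0.46 ± 0.23, adjusted p = 0.184). PCDHA2 was at 6.49, 6.38 and 9.11 CPM in Control and 9.33, 6.97 and 11.1 CPM in CAMKV-KD, with overlapping groups (0.32 ± 0.24, adjusted p = 0.350).

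The C-type alpha members had positive values without passing. PCDHAC1 was at 7.19, 9.31 and 5.92 CPM in Control and 13.9, 9.49 and 9.67 CPM in CAMKV-KD, with no overlap (0.56 ± 0.24, adjusted p = 0.129). PCDHAC2 varied widely within groups, with 81, 232 and 226 counts in Control and 115, 349 and 626 counts in CAMKV-KD. The groups overlapped (1.03 ± 0.75, adjusted p = 0.344), and the value ranged from 0.42 without CAMKV-KD 3 to 1.48 without CAMKV-KD 1. Summed over both clusters, the 5 C-type members were at 84.8 ± 3.47 CPM in Control and 115.5 ± 8.58 CPM in CAMKV-KD, of which PCDHGC3 was the greater part.

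A list of 27 chromatin factors, chosen as possible regulators of the clusters, was then read, and all of them were tested. Whether each acts on these promoters in NGP cells was not tested. In this list 6 rose, which is 22.2% beside 17.3% of all tested entries, and 0 fell. At an unadjusted p below 0.05, 8 were higher and 0 lower, and 22.6% of all tested entries were higher. REST, a repressor that binds silencer elements of neuronal genes, rose most, from 16.7, 35.7 and 18.7 CPM in Control to 92.4, 81.6 and 83.6 CPM in CAMKV-KD (log2 fold change 1.86 ± 0.32, edgeR adjusted p = 0.00813). STAG1, a subunit of cohesin, went from 43.9, 47.8 and 42.8 CPM to 88.9, 89.1 and 93.5 CPM (1.01 ± 0.058, adjusted p = 0.000303). In both genes the groups were far apart.

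SMCHD1, a chromatin protein whose loss in mouse raises clustered protocadherin expression, was at 111 ± 5.42 CPM in Control and 139 ± 3.05 CPM in CAMKV-KD (0.32 ± 0.047, adjusted p = 0.00498). Its groups did not overlap. MAU2, which loads cohesin with NIPBL, rose by 0.69 ± 0.16 (adjusted p = 0.0212), and was not called without Control 3, CAMKV-KD 1 or CAMKV-KD 3. PDS5A, a regulator of cohesin release, rose by 0.25 ± 0.073 (adjusted p = 0.0471), and was called in 1 of the 6 fits that left 1 library out, the one without Control 3, and not under upper-quartile scaling or without the low-count filter. CTCF was at 68.0, 144 and 66.6 CPM in Control and 104, 78.6 and 195 CPM in CAMKV-KD, so that both groups were scattered and overlapped (0.44 ± 0.47, adjusted p = 0.519). The cohesin subunit RAD21 did not pass either (0.11 ± 0.070, adjusted p = 0.269).

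Among 28 partners and processing enzymes, 2 rose and 4 fell, or 7.14% and 14.3%, beside 17.3% and 19.0% of all tested entries. ADAM10, the protease that sheds the extracellular part of gamma protocadherins in mouse, rose from 201 ± 3.87 to 246 ± 1.40 CPM (0.29 ± 0.028, adjusted p = 0.00126). ADAM17, another sheddase, rose by 0.18 ± 0.049 (adjusted p = 0.0373), and kept its call in 1 of the 6 fits that left 1 library out, the one without Control 1, and not under upper-quartile scaling. PSEN2, a catalytic subunit of gamma-secretase, which cuts the remaining stub, fell from 18.3 ± 0.971 to 11.6 ± 0.433 CPM (−0.66 ± 0.080, adjusted p = 0.00263). BRK1, a subunit of the WAVE actin-regulating complex to which many protocadherin tails bind, fell from 142 ± 2.61 to 105 ± 0.901 CPM (−0.43 ± 0.031, adjusted p = 0.000584). The GTPases RHOA (−0.17 ± 0.030, adjusted p = 0.00829) and RAC1 (−0.13 ± 0.026, adjusted p = 0.0150) also fell, RAC1 with no call when library totals set the scale. RET, a receptor kinase that phosphorylates protocadherins in mouse, was at 117, 111 and 84.3 CPM in Control and 78.2, 67.7 and 90.9 CPM in CAMKV-KD (−0.40 ± 0.17, adjusted p = 0.120). PTK2, the focal adhesion kinase that protocadherin tails inhibit, had a value of 0.47 ± 0.25 (adjusted p = 0.208).

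Of 16 listed genes beside and between the clusters, 13 were tested, 1 rose and 3 fell. These are 7.69% and 23.1%, beside 17.3% and 19.0% of all tested entries. TAF7, a subunit of the general transcription factor TFIID that lies between the beta and gamma clusters, was at 238, 243 and 234 CPM in Control and 204, 196 and 195 CPM in CAMKV-KD (−0.26 ± 0.033, adjusted p = 0.00284). It thus fell between clusters whose sums were higher. SLC25A2, a mitochondrial ornithine carrier in the same interval, had counts in a single library, at 0.0968 CPM. DIAPH1, a formin at the far side of the gamma cluster, was at 231, 223 and 229 CPM in Control and at 219, 216 and 212 CPM in CAMKV-KD (−0.08 ± 0.030, adjusted p = 0.0939), and was called lower by DESeq2 and under upper-quartile scaling. FCHSD1 rose (1.13 ± 0.15, adjusted p = 0.00346), and NDUFA2 (−0.38 ± 0.064, adjusted p = 0.00793) and RELL2 (−0.52 ± 0.14, adjusted p = 0.0404) fell, RELL2 with a call in 1 of the 6 fits that left 1 library out, the one without Control 2, and none when library totals set the scale.

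**Figure D4:**
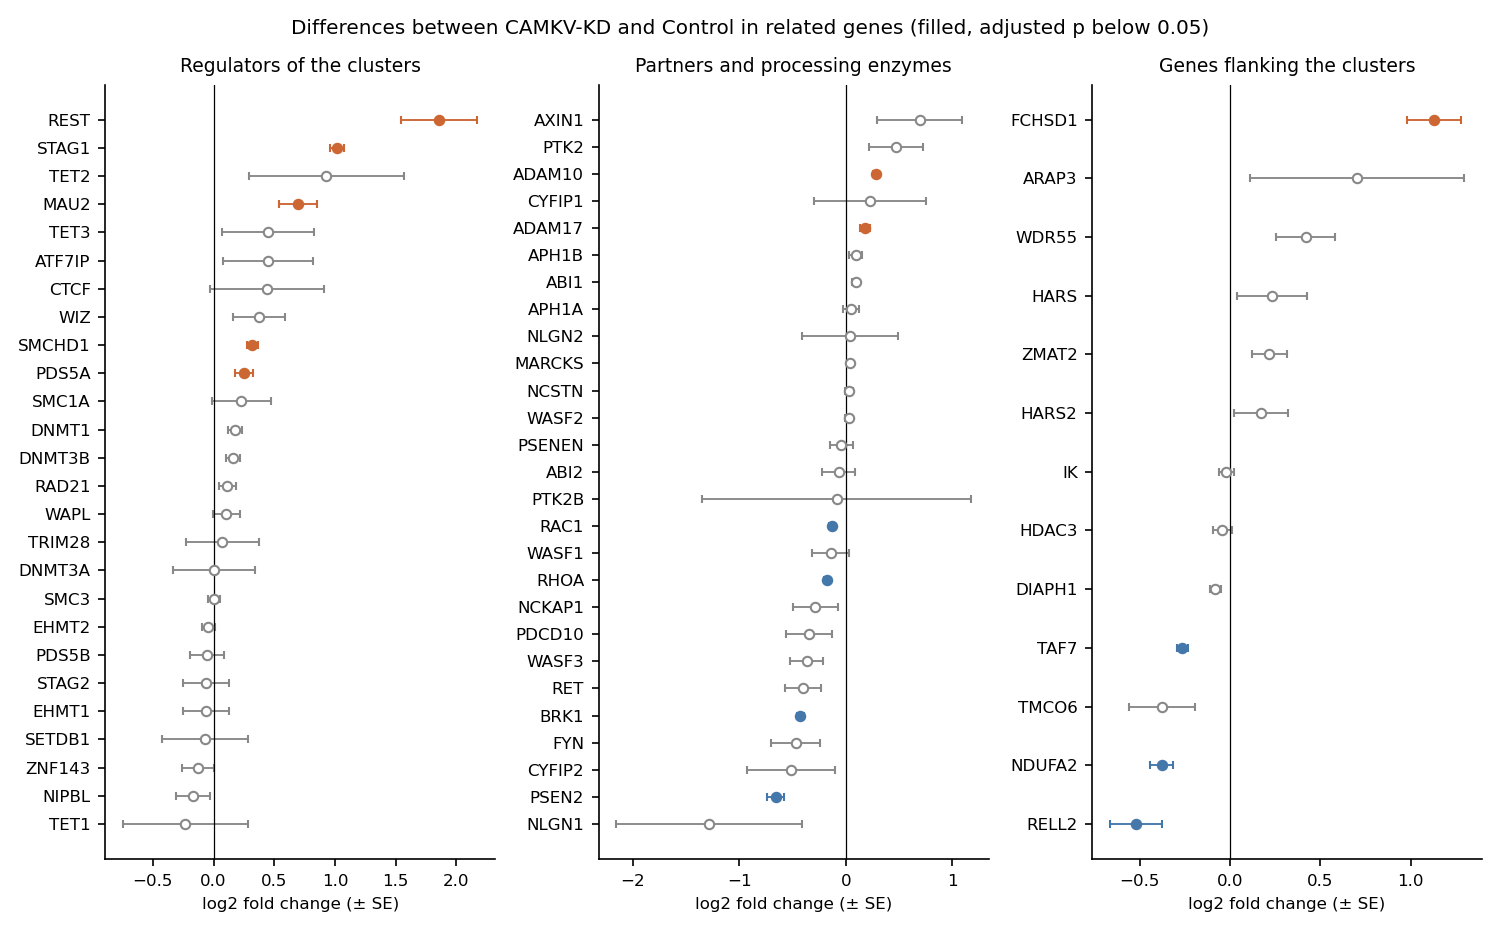
Log2 fold change of CAMKV-KD over Control, with bars of 1 SE, for regulators, partners and flanking genes that were tested and are reported here. Filled points passed at adjusted p below 0.05, and REST at 1.86 is the highest of the regulators.

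The non-clustered protocadherins, single genes outside these clusters with their own promoters, moved both ways. Of 9 tested, PCDH7 and PCDH18 rose and PCDH1, PCDH8, PCDH10 and PCDH20 fell, or 22.2% and 44.4%, beside 17.3% and 19.0% of all tested entries. PCDH10 was at 30.1, 34.0 and 33.3 CPM in Control and 18.1, 16.1 and 17.5 CPM in CAMKV-KD (−0.92 ± 0.082, edgeR adjusted p = 0.00102), and PCDH18 at 58.5, 65.7 and 58.0 CPM and 76.9, 79.7 and 80.4 CPM (0.38 ± 0.062, adjusted p = 0.00721). The difference between the clustered and the non-clustered members was not tested.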

How the data were processed

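Whole-number counts per gene in 6 libraries were used as deposited by the authors, with no normalization. Per the labels' protocols, total RNA was made into libraries with a SMARTer mRNA-Seq kit; reads were handled with HISAT2 2.1.0 and StringTie 1.3.5 on GRCh38.p13 and checked with FastQC 0.11.2, per the submitters' processing notes. How counts were taken, and on which strand, is not given in the sources used here. Groups came from the titles. In R 4.3.3, edgeR 4.0.16 fitted the whole table (filterByExpr, TMM scaling, quasi-likelihood F-test, Benjamini-Hochberg adjustment over 13366 entries, adjusted p below 0.05 called); SE is the absolute log2 fold change over the square root of F. Floors cover counting error only. No pair of libraries was identical over all entries. Chi-square per degree of freedom was 41.5 to 52.1 within groups and 104.7 to 119.2 between. Alternatives used limma 3.58.1, DESeq2 1.42.0, other scalings, no filter, a replicate block, summed loci and leaving out each library. The fits were run on simulated counts with known fold changes. The members and lists were chosen with earlier results of these data known. Named genes were all called members, the 3 most abundant and the most changed of each class, the C-type members, called genes of the lists, CTCF, RAD21, SMCHD1, RET, PTK2, TAF7, SLC25A2, DIAPH1 and CAMKV; values of PCDHA1, PCDHB3, PCDHB5 and others were added after they were seen. A few genes counted in the lists are not reported here by name.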

Additional observations from a re-analysis of the deposited data

How the results depend on the processing

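Rising members numbered 10 of 49 under the other scalings and by DESeq2, 10 of 52 without the low-count filter, 9 of 49 by limma-voom, and 7 to 9 with 1 library left out. Without the filter PCDHGA3 was called in place of PCDHGB6. Over all tested entries, 2791 of 13366 rose by DESeq2, 2383 of 13366 by limma-voom and 2193 of 16284 without the filter. With 1 library left out, 1739 to 1925 of 13523 to 13587 rose. With entries sharing a locus identifier summed, 4 of 12 tested member loci were called higher, among them the whole alpha and the whole gamma locus. Over the whole table, 2276 of 12512 summed loci were called higher. The locus of PCDHB8, PCDHB9, PCDHB10 and PCDHB16 had the largest log2 fold change of the member loci (0.85) and was not called. Falling members numbered 0 to 1 with 1 library left out, the 1 being PCDHA4 without Control 1. Same-numbered libraries showed no shared deviation (correlations −0.0097, −0.0621 and −0.0318). With 3 libraries per group this cannot show whether they were prepared together. A fit with the replicate block called 5 of 49 members higher (PCDHB2, PCDHB15, PCDHGA1, PCDHGB2 and PCDHGC3). It called 3337 of 13366 entries in all, 1526 of them higher. Among the genes named by rule, signs turned for PCDHGA10, at −0.21 to 0.056 over the fits leaving 1 library out, PCDHGB7 at −0.11 to 0.47, PCDHGC5 at −0.35 to 1.24 and CTCF at −0.023 to 0.90. The turned values were those without Control 2 for PCDHGA10, without Control 3 (−0.07) or CAMKV-KD 2 for PCDHGB7, without CAMKV-KD 2 for PCDHGC5 and without CAMKV-KD 3 for CTCF. Signs also turned in at least 1 alternative fit for other uncalled members. These were PCDHB3, PCDHB5, PCDHB7, PCDHB8, PCDHB10, PCDHGA4, PCDHGA5, PCDHGA7, PCDHGA11, PCDHGB3 and PCDHGB4. The cause was not tested. Over all entries, 2319 rose and 2538 fell; library totals gave 2812 and 2175, and upper-quartile scaling 2130 and 2698. Members under 1 CPM rest on few counts, and differences there may not be detectable at this depth.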
